A study of Homo sapiens with 3 samples.

Results

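The JAK kinases and STAT transcription factors carry cytokine signals from the cell surface to the nucleus, and their transcripts were measured here in HT-29 cells exposed to interferon-γ (IFN-γ). The genes examined were chosen by symbol, as the kinases JAK1, JAK2 and TYK2 and the factors STAT2, STAT3, STAT4, STAT5A, STAT5B and STAT6. Of these 9 genes, 8 had at least 1 probe set annotated with a single gene symbol, giving 13 probe sets of the 19065 that were named and tested (11963 genes). STAT2 had no such probe set and was not analysed here, and other genes of both families were not analysed here either.

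HT-29 is an established human colon adenocarcinoma line of epithelial origin. The single group comprised 3 cultures, which the series calls biological replicates, each given 200 U/ml IFN-γ for 24 h and hybridised to its own Affymetrix array. No untreated cultures were analysed here, so every value below is a level in treated cells and none is a response to IFN-γ. All 3 cultures share the line, the dose and the time, and the labels name no genetic change.

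Cytokine receptors lack kinase activity of their own and rely on JAK kinases bound to their cytoplasmic tails. After the ligand brings receptor chains together, the kinases phosphorylate each other and the receptor, STAT proteins dock through their SH2 domains, are themselves phosphorylated, form dimers and enter the nucleus to bind DNA. The IFN-γ receptor pairs JAK1 with JAK2, the type I interferon receptor pairs JAK1 with TYK2, and STAT2 acts mainly in a complex with IRF9. STAT3 is the usual factor of IL-6 family cytokines, STAT4 of IL-12, STAT6 of IL-4 and IL-13, and STAT5A and STAT5B of growth hormone, prolactin and IL-2 family cytokines.

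Under the deposited order of probe set names, values did not belong together by gene. Among 2239 genes whose first 2 probe sets lie over 100 rows apart, mean log2 signals of these probe sets correlated with r = -0.03 as deposited and r = 0.56 in the order used here, across genes, which are not independent replicates. Moving that order by 1 row either way gave r = 0.01 and r = -0.03. JAK1 and both STAT6 probe sets lie in a block of 2307 probe sets displaced by 488 rows, and the others in a block displaced by 487 rows. With the first block alone moved, r against probe sets of the same genes outside it was 0.44 in place and 0.10 and 0.18 at 1 row off (687 probe sets). Every value below depends on this order. The median signal per array was 137 to 144. Of 12 epithelial markers 10 were detected by the test described next, whereas 0 of 12 T and NK cell, 0 of 5 B cell, 0 of 6 myeloid, 0 of 6 fibroblast and 0 of 6 endothelial markers were detected by limma, and none of these reached an unadjusted p under 0.05. No other tool was run.

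Among the members, transcripts of JAK1, JAK2, STAT3, STAT5B and STAT6 were detected, and those of TYK2, STAT4 and STAT5A were not. A probe set was called detected when its log2 signal lay above a background limit of its array in a one-sided limma test over the 3 arrays, with p-values adjusted by Benjamini-Hochberg across all 19065 probe sets (adjusted p under 0.05). As the limit served the 95th percentile of 117 probe sets whose 84 genes are known from organs other than the gut, which came to 156.0, 156.2 and 172.3 signal units in replicates 1, 2 and 3. Detected were 7 of the 13 member probe sets (53.8%), beside 40.0% of all probe sets tested, and 5 of 8 member genes (62.5%), beside 45.3% of all genes. Without a test, 8 of 13 member probe sets (61.5%) lay above the limit on all 3 arrays, beside 43.1% of all. The median distance from the limit was 0.91 log2 units over the member probe sets and -0.10 over all probe sets. Shares near the background are no result about the members as a group. Probe sets differ in how strongly they hybridise, so no order of levels between genes is given.

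**Figure D1:**
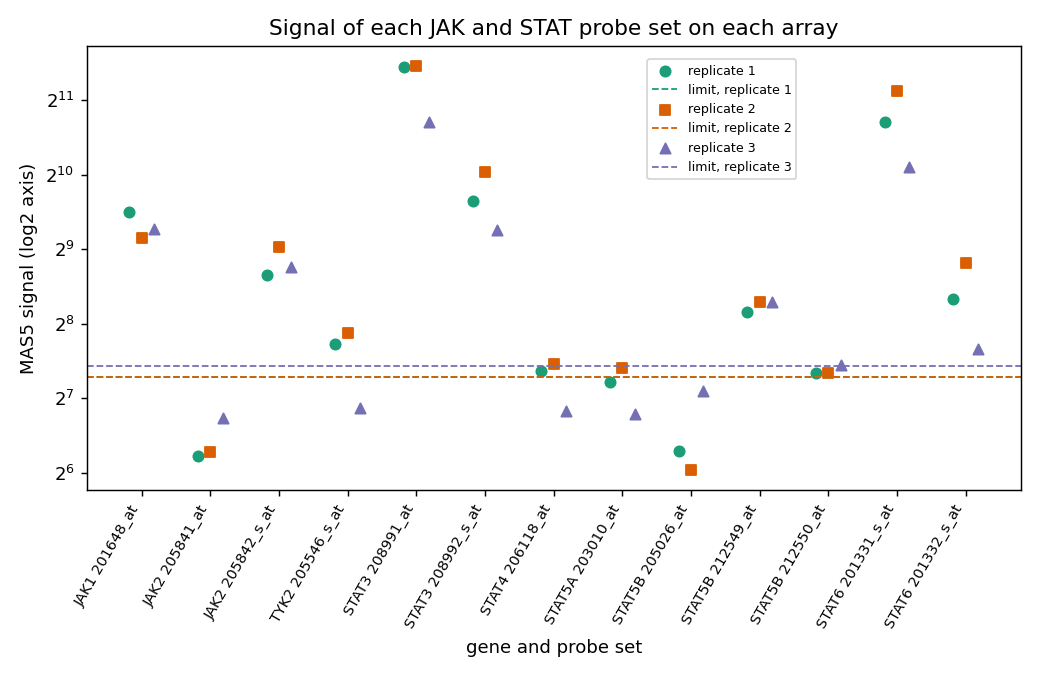
MAS5 signal on a log2 axis for each of the 13 JAK and STAT probe sets, with 1 point per array and the background limit of each array as a dashed line in its colour (the lines of replicates 1 and 2 coincide). Both STAT3 and both STAT6 probe sets lie above every limit, from 202.6 to 2812.5, while STAT4 and STAT5A straddle the limits.

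The kinases of the IFN-γ receptor were both detected. JAK1, the kinase bound to the ligand-binding receptor chain IFNGR1, had signals of 722, 566 and 620.3 in replicates 1, 2 and 3 (probe set 201648_at). Replicate 1 was highest, and all 3 arrays lay clear of their limits. The mean signal was 636 ± 79.5 (SD, n = 3), which lay 1.97 log2 units over the limit (SE 0.17, limma adjusted p = 3.1e-05), or 3.92 times the limit.

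JAK2, which binds the partner chain IFNGR2, was read by 2 probe sets that fell on opposite sides of the limit. The probe set 205842_s_at had signals of 402, 524 and 435 in replicates 1, 2 and 3, all above the limit and highest in replicate 2. Its distance from the limit was 1.48 log2 units (SE 0.18, limma adjusted p = 2.0e-04). The probe set 205841_at had signals of 74.7, 77.3 and 107, all under the limit and highest in replicate 3. Its distance was -0.92 log2 units, with a 95% interval from -1.56 to -0.29. JAK2 detection therefore rests on 1 probe set, and its _s_at suffix marks a design shared by several transcripts. Without suffixed probe sets JAK2 was not detected.

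TYK2, the kinase of type I interferon and IL-12 family receptors, was not detected. Its single probe set, 205546_s_at, had signals of 212, 235 and 116 in replicates 1, 2 and 3. The first 2 lay over their limits and replicate 3 lay under its own. The distance was 0.16 log2 units, with a 95% interval from -0.54 to 0.85 (limma adjusted p = 0.653). That interval includes the limit, so presence could not be told from background at 3 arrays, and without replicate 2 the distance was -0.06.

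STAT3, the factor of IL-6 family cytokines, was detected by both of its probe sets. For 208991_at the signals were 2785, 2812.5 and 1677 in replicates 1, 2 and 3, a mean of 2425 ± 648 (SD, n = 3). This lay 3.87 log2 units over the limit (SE 0.21, limma adjusted p = 3.2e-06), or 14.6 times the limit. For 208992_s_at the signals were 804, 1049.6 and 613, and the distance was 2.32 log2 units (SE 0.21, adjusted p = 4.2e-05). Both probe sets were highest in replicate 2 and lowest in replicate 3.

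STAT6, the factor of IL-4 and IL-13, was likewise detected by both probe sets. For 201331_s_at the signals were 1667, 2222 and 1103 in replicates 1, 2 and 3, a mean of 1664 ± 559.5 (SD, n = 3), at 3.31 log2 units over the limit (SE 0.23, limma adjusted p = 1.1e-05). For 201332_s_at they were 321, 451 and 203, at 0.94 log2 units (SE 0.27, adjusted p = 0.0166). Both again had replicate 2 highest and replicate 3 lowest. The second call was lost without replicate 1 (limma adjusted p = 0.0827) and without replicate 2 (adjusted p = 0.0927), whereas the first held in each case. Both carry the _s_at suffix, so STAT6 had no value without suffixed probe sets.

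STAT5B was detected by 1 of 3 probe sets. For 212549_at the signals were 285.5, 313 and 314 in replicates 1, 2 and 3, which lay 0.91 log2 units over the limit (SE 0.18, limma adjusted p = 0.00267). For 212550_at they were 161, 161 and 174, above the limit on every array but by only 0.04 log2 units (95% interval -0.47 to 0.55, limma adjusted p = 0.909). For 205026_at they were 78.3, 65.7 and 137, all under the limit, at -0.86 log2 units. The first 2 of these probe sets varied little between arrays, with the highest signal at 1.101 and 1.083 times the lowest. The third varied by 2.08 times at background level. With the limit at the 99th percentile of the background probe sets, 212549_at lay 0.38 log2 units over it and was not called (limma adjusted p = 0.160).

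STAT5A, the close paralog of STAT5B, was not detected. Its probe set 203010_at had signals of 148, 169.7 and 111 in replicates 1, 2 and 3, and only replicate 2 lay above its limit. The distance was -0.20 log2 units, with a 95% interval from -0.81 to 0.42. The first bases of their transcripts lie 11048 to 12107 bases apart on chromosome 17, on opposite strands, at the start sites listed by RefSeq (GRCh38.p14). Whether signal from one gene reached probes of the other cannot be told here, because probe sequences were not analysed.

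STAT4, the lymphoid factor of IL-12 signalling, was not detected. Its probe set 206118_at had signals of 165, 175.6 and 114 in replicates 1, 2 and 3. Replicates 1 and 2 lay just over their limits and replicate 3 lay under its own. The distance was -0.12 log2 units, with a 95% interval from -0.73 to 0.50. The 12 T and NK cell markers, none detected, summed to signals of 568 to 918 per array.

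**Figure D2:**
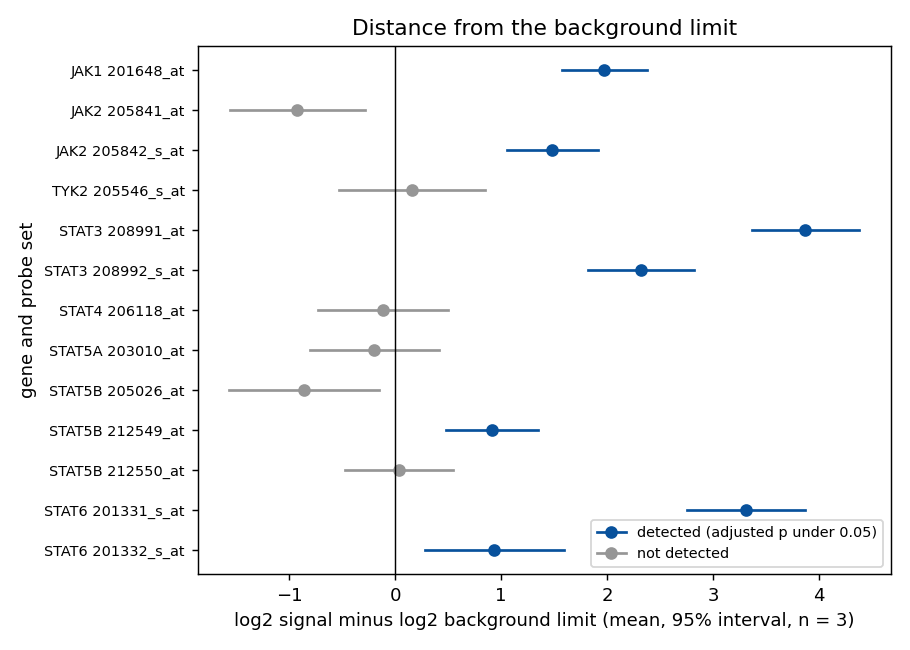
Mean log2 signal minus the log2 background limit for each member probe set (n = 3 arrays), with 95% intervals from limma on the horizontal axis; blue marks detected probe sets and grey the others. Intervals of STAT3 and of STAT6 201331_s_at lie farthest from 0, and those of TYK2, STAT4, STAT5A and STAT5B 212550_at include it.

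Of the 4 member genes with several probe sets, JAK2 and STAT5B had some but not all of them detected, while both probe sets of STAT3 and of STAT6 were detected. Among all 4310 genes with several probe sets, 33.2% were split in this way.

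The members differed in how they varied between the cultures. Among the 7 detected member probe sets, the SD of log2 signal had a median of 0.39, beside 0.29 over all 7624 detected probe sets. The 4 with an SD above the latter were those of STAT3 (0.43 and 0.39) and STAT6 (0.51 and 0.58). JAK1 (0.18), JAK2 205842_s_at (0.20) and STAT5B 212549_at (0.08) varied less. The lowest signal fell in replicate 3 for 4 of these 7 probe sets (57.1%), beside 41.7% of all detected probe sets, and the highest in replicate 2 for 5 of 7 (71.4%), beside 35.6%. These are descriptions over 3 arrays, and probe sets of one gene share their transcript.

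Relative to the mean of replicates 1 and 2, replicate 3 was lower for TYK2 (-0.94 log2 units), STAT6 (-0.80 and -0.91), STAT3 (-0.74 and -0.58), STAT4 (-0.58) and STAT5A (-0.52). For JAK1 (-0.04), JAK2 205842_s_at (-0.08) and STAT5B 212549_at (0.07) it differed little. The same difference had a median of -0.03 over all detected probe sets, with quartiles of -0.41 and 0.32. The STAT3 and STAT6 values lie below that lower quartile. Those of TYK2, STAT4 and STAT5A do too, but these were not detected, so the quartiles describe unlike probe sets. The SD of log2 signal had a median of 0.515 over all probe sets not detected, beside 0.289 over detected ones. In the opposite direction, replicate 3 was higher for JAK2 205841_at (0.49) and STAT5B 205026_at (0.93), both above the upper quartile and both under the limit on every array. After quantile normalization they were -0.74 and -0.46 for STAT3, -0.76 and -0.81 for STAT6 and -0.93 for TYK2, while JAK1 changed sign to 0.10 and JAK2 205842_s_at to 0.06.

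**Figure D3:**
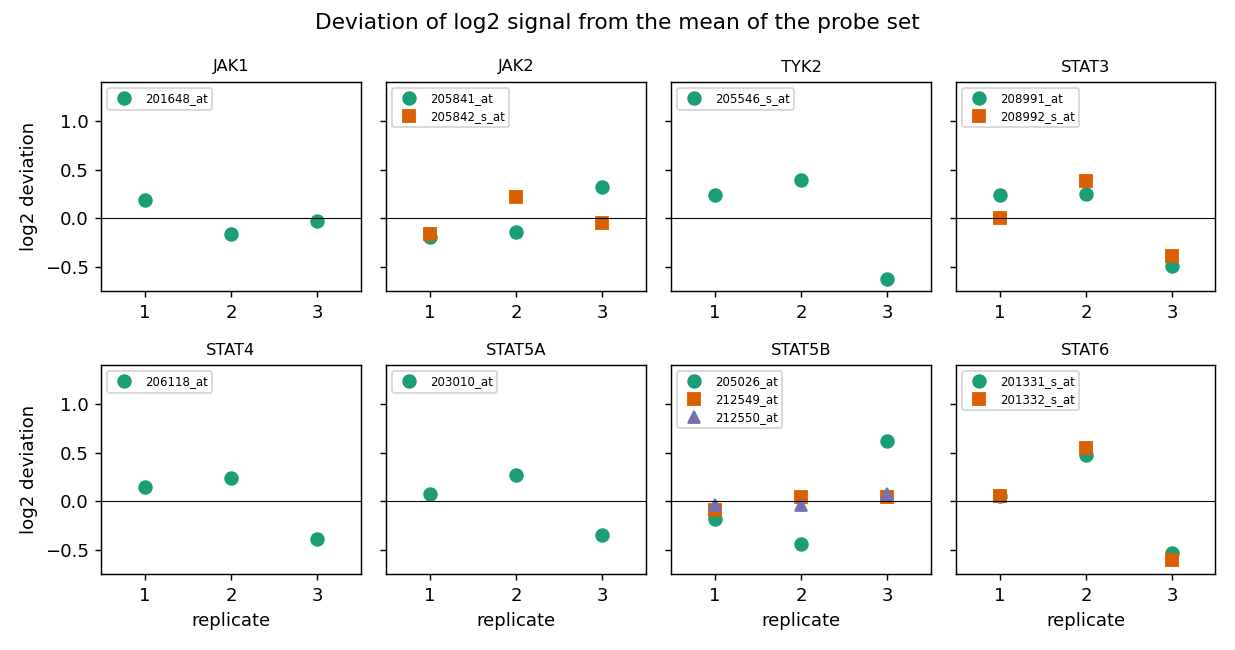
Deviation of log2 signal from the mean of the probe set (vertical axis) in each replicate (horizontal axis), with 1 panel per member gene and 1 symbol per probe set. Both probe sets of STAT3 and both of STAT6 are lowest in replicate 3, whereas STAT5B 205026_at is highest there and its other probe sets are nearly flat.

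Likeness of these profiles was measured as the summed absolute difference of deviations over the 3 arrays, in log2 units. The most alike pair was STAT4 and STAT5A (0.14), followed by the 2 STAT6 probe sets (0.15) and STAT5B 212549_at with 212550_at (0.16). STAT3 208991_at came next with STAT4 (0.21). The least alike were TYK2 and STAT5B 205026_at (2.49). STAT4, STAT5A, TYK2 and the STAT5B probe sets 205026_at and 212550_at were not detected, so their deviations are those of signals near or under the limit. The 2 STAT6 probe sets are the closest pair in which both were detected. With 3 arrays of 1 condition these figures show no pattern over conditions.

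The surrounding pathway was read from lists of genes by role. Of 27 measured cytokine receptor chains that use JAK kinases, 11 were detected (40.7%), a share near the 45.3% of all genes. IFNGR1 had signals of 2162, 2026 and 3444 in replicates 1, 2 and 3 on 202727_s_at, and IFNGR2 had 922, 955 and 714. Both lay above every limit, so each kinase of the IFN-γ receptor was measured together with its chain. Of the type I interferon receptor, IFNAR2 was detected on 204785_x_at (400, 302 and 267 in replicates 1, 2 and 3) but not on 204786_s_at (69.3, 38.9 and 43.2), and the _x_at suffix marks a design that cross-hybridises. IFNAR1, the chain that binds TYK2, was under the limit on every array (86.0, 105.5 and 84.7).

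Receptor chains of other cytokines were detected in part. The IL-6 family chains IL6R, LIFR, OSMR, IL11RA and CNTFR, the IL-10 receptor chain IL10RA and the shared chain IL2RG were not detected. The chains IL13RA1, IL22RA1, IL2RB, IL15RA and EPOR were detected. All of these were named after their values were seen. The EPOR probe sets fell on opposite sides of the limit. The detected EPOR probe set lay at 2.58 log2 units (1447, 947 and 655 in replicates 1, 2 and 3). Another EPOR probe set lay at -2.02 log2 units (34.3, 31.5 and 57.8), under the limit on every array. IL6ST, the shared signal chain of IL-6 family receptors, was detected by 3 of 5 probe sets, and 212195_at had signals of 1110.3, 793 and 1720.4 in replicates 1, 2 and 3. IL4R, the chain that recruits STAT6, had 337, 352 and 213, at a distance of 0.86 log2 units (limma adjusted p = 0.0124). IL10RB, a chain of IL-10 family receptors, had 297, 284 and 443 and was detected (adjusted p = 0.00194). Both chains of the IL-12 receptor, which signals through TYK2 and STAT4, were under the limit on all 3 arrays, with 113, 39.2 and 48.9 for IL12RB1 and 32.1, 5.77 and 81.9 for IL12RB2. With the limit at the 99th percentile, 7 of the 27 receptor chains were detected.

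Negative regulators were detected for 9 of 18 measured genes, a share near the 45.3% of all genes. The count was 6 with the limit at the 99th percentile and 12 with the limit at the 90th percentile. PTPN2, a phosphatase that acts on JAK kinases and STAT proteins, was detected by 2 of 3 probe sets, with 1302, 1458 and 1859 in replicates 1, 2 and 3 on 213136_at. PTPN11, a phosphatase that docks on cytokine receptors, was detected by 4 of 5, and PIAS1, a SUMO ligase that binds STAT proteins, by 2 of 3. The feedback inhibitors SOCS1, SOCS3 and CISH, which STAT proteins induce, were not detected on any of their probe sets. Of the same list SOCS5, SOCS6 and USP18 were detected, whereas SOCS2 and SOCS7 were not, all named after their values were seen. The highest SOCS1 probe set, 210001_s_at, had 269.8, 358 and 173, above the limit on all arrays with limma adjusted p = 0.0551. CISH had 238, 184.6 and 193 (limma adjusted p = 0.186) on its single probe set, 221223_x_at, a design that cross-hybridises. The highest SOCS3 probe set, 206360_s_at, had 37.7, 104.5 and 132.

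Partners of STAT proteins in the nucleus and on the receptor were detected for 9 of 10 genes, beside 45.3% of all genes. Without suffixed probe sets they were detected for 4 of 7 genes. In that setting 3532 of all 10065 probe sets were detected, and the share of all genes was not computed. IRF9, the DNA-binding partner of STAT2, had signals of 1586, 1429 and 833 in replicates 1, 2 and 3. Its distance from the limit was 2.94 log2 units (limma adjusted p = 2.1e-05), and it was lowest in replicate 3.

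Target genes were detected unevenly across the factors, in short lists to be read beside the 45.3% of all genes detected. Of 8 IFN-γ targets 7 were detected (87.5%), among them IRF1, a transcription factor, with 4375, 6324 and 4556.5 in replicates 1, 2 and 3. Of 7 targets of the STAT2 and IRF9 complex 6 were detected, among them IFIT3, an antiviral protein, with 2126, 2329 and 1511. Of 5 STAT3 targets 4 were detected, among them JUNB, a subunit of the AP-1 factor, with 725, 916 and 358. By contrast 0 of 4 STAT4 targets and 0 of 5 STAT5 targets were detected by limma, and 0 of either reached an unadjusted p under 0.05. CISH, read only by 221223_x_at, was the STAT5 target above the limit on all 3 arrays. With the limit at the 90th percentile 1 of the 5 was detected.

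IFNG, a STAT4 target and the gene of IFN-γ itself, had 73.8, 90.1 and 82.5 in replicates 1, 2 and 3, all under the limit. Of 4 STAT6 targets 1 was detected, GATA3, which was named after its values were seen, and the count was 0 without replicate 1, without replicate 3 and under 6 other settings. Each target gene answers to other regulators too, and differences between lists were not tested.

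**Figure D4:**
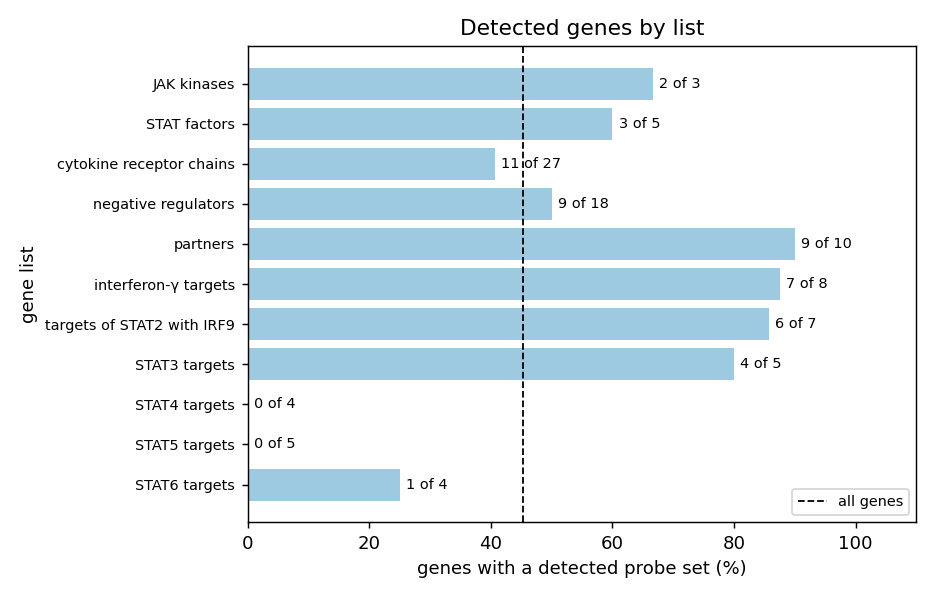
Percentage of measured genes with at least 1 detected probe set (horizontal axis, from 0) in each gene list, with the counts beside the bars and the share of all genes, 45.3%, as a dashed line. Lists of IFN-γ targets and partners stand at 7 of 8 and 9 of 10 genes, and no STAT4 or STAT5 target was detected.

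Promoters of the members are shown as the sequence context of these levels. RefSeq (GRCh38.p14) listed 17 promoter windows for the 9 member genes, each from 250 bases before to 50 after a start site. The windows were searched on both strands for the interferon-γ activated site TTCNNNGAA to which STAT dimers bind, its form with 4 bases between TTC and GAA, the interferon-stimulated response element core of GAAA on both sides of 2 bases, the CCAAT box CCAAT, the GC box GGGCGG and the TATA box TATAAA. TTCNNNGAA was in 0 of the 17 windows, beside 7.66% of all 35116 windows, and the response element core was in 0 of 17, beside 3.57%. TATAAA was in 0 of 17, beside 11.5%. The form with the longer spacer was in 1 of 17, beside 6.44%, CCAAT in 4 of 17, beside 34.6%, and GGGCGG in 7 of 17, beside 15786 of the 35116 windows. Some members had several windows. Counted by gene, CCAAT was in 4 and GGGCGG in 7 of the 9 members, and no share over all genes was computed. A missing match says only that these letters were not in these windows.

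The windows of STAT3 and STAT6, the genes with both probe sets detected, are given with that of TYK2, which held CCAAT 6 times, and the STAT5A window with the single match of the longer spacer. They lie at chr17:42388393-42388692 (minus strand), chr12:57110240-57110539 (minus strand), chr19:10380523-10380822 (minus strand) and chr17:42287189-42287488 (plus strand). Capitals mark motif matches on either strand, and matches of different motifs did not overlap in these windows.
STAT3: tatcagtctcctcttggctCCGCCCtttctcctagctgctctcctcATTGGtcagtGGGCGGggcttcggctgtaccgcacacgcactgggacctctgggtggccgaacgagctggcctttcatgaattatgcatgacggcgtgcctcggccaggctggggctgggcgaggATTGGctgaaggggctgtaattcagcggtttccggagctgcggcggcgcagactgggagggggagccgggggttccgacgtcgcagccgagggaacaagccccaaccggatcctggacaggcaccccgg
STAT6: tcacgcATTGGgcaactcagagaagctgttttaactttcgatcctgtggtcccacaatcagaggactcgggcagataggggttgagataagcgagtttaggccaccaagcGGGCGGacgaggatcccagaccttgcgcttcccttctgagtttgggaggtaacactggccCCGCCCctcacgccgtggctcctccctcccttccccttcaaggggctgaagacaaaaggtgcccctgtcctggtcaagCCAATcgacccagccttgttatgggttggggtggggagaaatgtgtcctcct
TYK2: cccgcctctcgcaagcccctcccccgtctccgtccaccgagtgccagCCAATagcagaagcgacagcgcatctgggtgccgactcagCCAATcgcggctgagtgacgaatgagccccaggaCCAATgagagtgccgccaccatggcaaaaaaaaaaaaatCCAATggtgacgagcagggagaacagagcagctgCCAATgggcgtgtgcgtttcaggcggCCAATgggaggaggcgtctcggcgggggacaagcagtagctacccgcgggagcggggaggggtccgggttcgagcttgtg
STAT5A: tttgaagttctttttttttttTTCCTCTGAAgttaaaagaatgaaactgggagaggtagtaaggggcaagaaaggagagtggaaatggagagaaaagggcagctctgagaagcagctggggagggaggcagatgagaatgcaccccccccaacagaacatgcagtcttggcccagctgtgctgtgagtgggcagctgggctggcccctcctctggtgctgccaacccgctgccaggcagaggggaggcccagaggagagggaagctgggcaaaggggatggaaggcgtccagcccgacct
STAT3 and STAT6 each held 2 CCAAT and 2 GGGCGG matches, and TYK2 held 6 CCAAT and no GGGCGG match. The CCAAT matches in TYK2 run across the window, whereas the STAT5A match lies near its far upstream end.

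CpG dinucleotides were counted in the window of each gene that held the most of them. The median was 29 over 4606 genes with a detected probe set and 22 over 4957 genes without one. STAT5B had 55, JAK1 43, JAK2 39 and STAT5A 37, all above both medians. A gene with more windows has more chances of a high count. JAK1 had 3 windows, JAK2 4 and STAT5A 3, whereas STAT5B, TYK2, STAT3 and STAT6 had 1 each. STAT2, which had no signal value, had 25 in its 1 window. TYK2 with 24 and STAT3 with 23 lay between the medians. STAT6, which was detected, had 12, and STAT4, which was not detected, had 11. A relation of CpG count to detection was not tested.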

How the data were processed

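Total RNA of 3 cultures was hybridised to Affymetrix arrays. Per the submitters' processing notes, the authors used Affymetrix Expression Console 1.1 and MAS5. Each deposited value is the intensity of a probe set on a linear scale, and the mean of each array without its highest and lowest 2% was 500.3. Not given in the sources used here are the background step, the scaling target and presence calls.

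After 6 empty values were dropped, 15 unnamed values were placed first, then blocks of 100, 493 and 21622 named probe sets, and 47 unnamed values last. Symbols came from the platform annotation, through Entrez IDs and RefSeq (GRCh38.p14). Of the deposited probe sets, 19071 had 1 symbol, 1043 several and 2169 none listed. Controls were left out, leaving 19065.

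Log2 signal without a pseudocount, minus the array's limit, was fitted with an intercept and a variance trend in limma 3.58.1 (R 4.3.3). The p-values leave out the error of the limit itself. The fit was tested on simulated data. Depth has no meaning for arrays, and their number, 3, limits precision. The alternatives changed the order of names, the limit, a pseudocount of 16, a low-signal filter, suffixed probe sets, quantile normalization, the variance trend, the probe set per gene and each replicate.

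Named were all members with every probe set and 21 pathway genes, where measured; CCL26 had no single-symbol probe set. The members and lists were chosen with earlier results of these data known, and the promoter motifs with the sequences in view.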

Additional observations from a re-analysis of the deposited data

How the results depend on the processing

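Counts of detected member probe sets (7), member genes (5), pathway genes (47 of 85 measured) and all probe sets (7624) stayed within 1.5 times under a pseudocount, the low-signal filter, quantile normalization, no variance trend, 1 probe set per gene and other limits. Without suffixed probe sets they were 3 of 8, 3 of 6, 29 of 69 and 3532 of 10065, where fewer were tested, and the median SD of log2 signal over the members was 0.18 instead of 0.39. Under the names as deposited they were 2 of 13, 2 of 8, 8 of 85 and 845 of 19065, and that SD was 0.17. There JAK2 205842_s_at lay at -7.45 log2 units, STAT3 at -8.33 and -5.003, STAT5B at -1.82 (212549_at) and -1.42 (212550_at), STAT6 201331_s_at at -0.33 and TYK2 at -3.58. Leaving out 1 replicate gave 6 to 7 member probe sets, 5 to 5 member genes, 41 to 49 pathway genes, 6772 to 7941 probe sets and a median SD of 0.27 to 0.53. Under the other settings the distances that changed sign were those of STAT4, STAT5A, STAT5B 212550_at and TYK2, and the cause was not tested. STAT4 lay at 0.18 with the 90th percentile limit, at 0.079 without suffixed probe sets, and from -0.26 to 0.12 with 1 replicate left out (highest without replicate 3). STAT5A lay at 0.094 with the 90th percentile limit, and from -0.35 to 0.024 with 1 replicate left out (highest without replicate 3). STAT5B 212550_at lay at -0.50 with the 99th percentile limit and -0.04 with the limit from the highest probe set per background gene. TYK2 lay at -0.38 with the 99th percentile limit, and from -0.063 (without replicate 2) to 0.52 with 1 replicate left out. None of these was called. With the 99th percentile limit STAT5B 212549_at and STAT6 201332_s_at were no longer called. No paired analysis was possible because all 3 arrays belong to 1 group.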

Other observations

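Some genes around the members had replicate 3 highest where STAT3 and STAT6 had it lowest, and they were picked out after their values were seen. All 5 probe sets of IL6ST, the receptor chain that recruits STAT3, were highest in replicate 3, from 221 on 204863_s_at to 1720.4 on 212195_at. Of these, 204863_s_at and 211000_s_at were not detected. Both IFNGR1 probe sets were highest in replicate 3 too, with 3444 on 202727_s_at and 1794 on 211676_s_at. IFNGR2, IL4R, IRF9, JUNB, IFIT3 and IFNAR2 204785_x_at, among others, were instead lowest in replicate 3. No share of all probe sets highest in replicate 3 is given, and probe sets of the same gene share their transcript. The counts of probe sets are therefore no result about the named genes. No condition separates the replicates, so these differences have no test.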
